A study of Mus musculus with 6 samples.

Results

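*Crispld2* and 5 relatives of the CAP superfamily (*Crispld1*, *Pi15*, *Pi16*, *Glipr1* and *Glipr2*) were examined in the brain mural cell and microvascular libraries, as 6 genes of the 33460 listed. *Crispld2* was chosen by its ratio of mean FPKM between the sorted cells and the fragments in these same samples, whereas the relatives were taken by family membership. The mice were *NG2-DsRed/Pdgfrb-eGFP* double transgenic animals (line Tg(Pdgfrb-eGFP)JN169Gsat/Mmucd for the eGFP reporter) at postnatal day 6, and both groups carried both reporters. The 3 mural samples were cells positive for eGFP and DsRed, sorted by FACS, so that the *Pdgfrb* and NG2 (*Cspg4*) reporters define the cells. The 3 microvascular samples were vessel fragments pulled down with anti-CD31 beads, which hold endothelial and mural cells together. Values are FPKM, which scales the sequenced fragments of a gene by its transcript length and by the size of the library, so that levels can be compared between genes.

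CAP proteins (cysteine-rich secretory proteins, antigen 5 and pathogenesis-related 1 proteins) share a compact, mostly secreted fold. CRISPLD1 and CRISPLD2 carry LCCL domains behind the CAP domain, and *Crispld2*, also called *Lgl1*, is known as a mesenchymal, glucocorticoid-inducible gene of the developing lung. PI15 and PI16 were named as peptidase inhibitors, and *Pi16* is known from fibroblasts. GLIPR1 is a membrane-associated CAP protein known as a p53 target, and GLIPR2 (GAPR-1) is the family member that stays inside the cell, on the Golgi membrane.

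Among the 6 genes, *Crispld2* and *Glipr2* were higher in every mural library than in every microvascular library at levels that rest on 31 or more sequenced fragments in each mural library. *Pi15* showed the same separation at low levels, and *Crispld1*, *Pi16* and *Glipr1* overlapped between the groups. In NCBIM37, *Crispld2* (ENSMUSG00000031825) lies on chromosome 8 from 122516338 to 122576693 and *Glipr2* (ENSMUSG00000028480) on chromosome 4 from 43970273 to 43991990, both on the plus strand. *Pi15* (ENSMUSG00000067780, 17591982 to 17621019) and *Crispld1* (ENSMUSG00000025776, 17717126 to 17756425) are neighbours on the plus strand of chromosome 1, with starts 125.1 kb apart. *Glipr1* (ENSMUSG00000056888) lies on the minus strand of chromosome 10 from 111422504 to 111439687, and *Pi16* (ENSMUSG00000024011) on the plus strand of chromosome 17 from 29455822 to 29466358. The longest annotated coding sequences are of like size for *Crispld1* (1500 bases), *Pi16* (1494) and *Crispld2* (1485), and shorter for *Pi15* (807), *Glipr1* (765) and *Glipr2* (462). *Crispld1* and *Crispld2* have 15 exons each in these transcripts. Several members overlap other annotated genes, and because the use of strand in the counting is not given in the sources used here, reads in the shared stretches cannot be assigned with certainty. The antisense transcript *Gm15684* and the long gene model *Gm20388* overlap *Crispld2*, *Gm16070* overlaps the start of *Crispld1*, and *Krr1* overlaps the end of *Glipr1*. *Gm15684*, *Gm20388* and *Gm16070* had an FPKM of at most 0.695 in any library, whereas *Krr1* had 12.3 to 20.2.

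RefSeq promoter windows (GRCm38.p6, 250 bases before to 50 bases after the start) were matched for 3 of the 6 genes. Those of *Crispld2* and *Glipr2*, the members that were higher in mural cells at well covered levels, are shown, each on the plus strand and 5′ to 3′, with the letters matching a searched motif in capitals. The *Crispld2* window is chr8:119992188-119992487 and the *Glipr2* window is chr4:43957452-43957751.

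*Crispld2*: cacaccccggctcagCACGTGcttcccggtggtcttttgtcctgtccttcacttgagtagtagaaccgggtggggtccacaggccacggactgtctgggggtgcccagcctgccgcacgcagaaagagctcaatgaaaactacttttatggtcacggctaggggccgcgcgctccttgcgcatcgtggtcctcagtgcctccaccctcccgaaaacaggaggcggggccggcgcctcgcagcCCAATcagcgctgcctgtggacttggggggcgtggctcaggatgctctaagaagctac

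*Glipr2*: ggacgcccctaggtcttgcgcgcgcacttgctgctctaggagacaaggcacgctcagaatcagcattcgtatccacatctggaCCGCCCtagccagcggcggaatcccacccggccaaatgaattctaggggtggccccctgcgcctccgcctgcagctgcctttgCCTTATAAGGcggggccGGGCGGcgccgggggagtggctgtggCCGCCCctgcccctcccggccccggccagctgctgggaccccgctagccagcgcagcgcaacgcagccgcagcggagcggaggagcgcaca

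The 6 motifs searched, on both strands, were the CArG box (bound by serum response factor in smooth muscle genes), the MCAT core CATTCC (bound by TEAD factors), the glucocorticoid half-site TGTTCT, the CCAAT box, the GC box GGGCGG and the E-box CACGTG. In the *Glipr2* window, 1 exact CArG box stood 84 bases before the start, a motif present in 1.63% of the 32851 windows of the table. The same window held 3 GC boxes (35.7% of all windows hold at least 1). The *Crispld2* window held no CArG box, MCAT core or glucocorticoid half-site, and had 1 CCAAT box (37.4% of all windows) and 1 E-box (7.15%). The *Pi16* window, not printed, held 1 glucocorticoid half-site (19% of all windows) and 1 CCAAT box. MCAT cores were found in 14.7% of all windows and in none of these 3. None of the matches overlapped another. These are matches of letters only, and binding was not measured.

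The libraries differed in depth and in the cells they hold. Fragments recovered from the value of 1 fragment came to approximately 5.44 to 5.96 M on protein-coding genes for the microvascular libraries and 2.37, 1.04 and 1.05 M for mural replicates 1, 2 and 3. All 12 pericyte markers and 9 of 10 smooth muscle markers were enriched in mural cells (adjusted p under 0.05 and a ratio of the means over 2, limma), where 6.43% of all genes tested were enriched and 10.1% were lower (ratio under 0.5). The summed FPKM of 12 endothelial markers was 1443 to 1873 in mural cells and 2045 to 2386 in fragments, with 2 of them called lower and 10 lower at an unadjusted p under 0.05 (20.9% of all genes tested), so that endothelial RNA was present in both groups, whereas all 8 microglia markers were lower in mural cells (summed FPKM 96.9 to 154 against 1388 to 1571). The 6 astrocyte markers summed to 678 in mural replicate 3, 231 and 182 in replicates 1 and 2, and 268 to 378 in fragments. Oligodendrocyte progenitor markers (5 genes) summed to 74.8 in mural replicate 3 and to 21.4 to 37.5 in all other libraries, and 5 neuron markers to between 23.5 and 38.2 for the sorted cells, with 37.8 to 54.9 for the fragments.

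*Crispld2* had an FPKM of 46.0, 115.6 and 107.1 in mural replicates 1, 2 and 3, and of 5.14, 5.83 and 2.38 in microvascular replicates 1, 2 and 3. Every mural library was far above every fragment library, with mural replicate 1 below the other two. The mean was 89.6 ± 38.0 (SD, n = 3) for mural cells, and 20.1 times that of the fragments (4.45 ± 1.83, SD, n = 3), which is the value that chose the gene and is given without a test. Between single libraries the ratio ran from 7.88 (mural replicate 1 over microvascular replicate 2) to 48.7 (mural replicate 2 over microvascular replicate 3). Among the 861 genes called enriched with a mean FPKM of at least 1 in fragments, this ratio ranked first, and among all 952 called enriched genes it ranked 11th, behind genes with lower fragment values. Both ranks restate the ratio that chose the gene, within genes called on the same contrast, and are descriptions only.

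By level, *Crispld2* moved from the lower part of the distribution to the upper part. In the fragments 69.3% to 85.2% of the 14801 genes tested had a higher FPKM, against 14.6%, 3.78% and 4.15% in mural replicates 1, 2 and 3. With the transcript of the longest coding sequence as its length, the values correspond to approximately 220, 232 and 228 fragments in the mural libraries and 63, 67 and 30 in the microvascular libraries. The 95% Poisson interval, which covers counting error only, was 40.1 to 52.4 FPKM for mural replicate 1, below the 93.5 to 121.8 of replicate 3 and the 101.1 to 131.4 of replicate 2. The coefficient of variation over the mural libraries was 42.4%. Of the genes called enriched, 10.9% varied more between mural libraries.

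**Figure D1:**
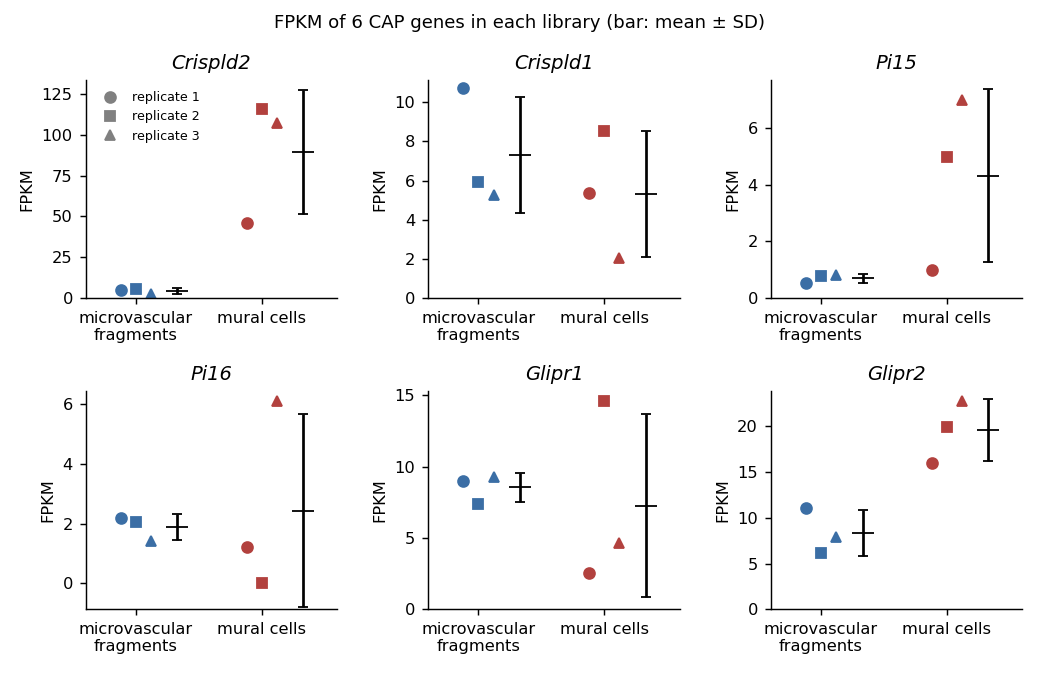
FPKM of the 6 CAP genes (1 panel each, own linear y axis) in the 3 microvascular (blue) and 3 mural (red) libraries, with symbols for the replicate number and bars for mean ± SD. *Crispld2*, *Glipr2* and *Pi15* show no overlap between the groups, whereas a single mural library stands above the fragments for *Glipr1* (replicate 2, 14.6) and *Pi16* (replicate 3, 6.08). Of all genes tested, 16.5% were separated in this direction, and *Crispld2* was chosen by this contrast.

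The pattern of *Crispld2* over the 3 mural libraries was compared with the mural cell markers. Its FPKM in mural replicate 1 was 41.3% of the mean of replicates 2 and 3. For the 10 smooth muscle markers this value was 51.9% at the median (range 23.1% to 84.9%), and for the 12 pericyte markers it was 108% (range 84.7% to 135%). The median over all genes tested was 98.1%, with a 10th percentile of 50.4%. *Acta2*, the smooth muscle actin, had an FPKM of 381, 838 and 959 in mural replicates 1, 2 and 3, and *Myh11*, the smooth muscle myosin heavy chain, had 78.7, 161 and 184, so both were lowest in replicate 1 as *Crispld2* was. *Pdgfrb*, which drives one of the reporters, had 461, 474 and 401, with no such low value. Whether the share of smooth muscle cells differed between the sorted samples was not tested, and in bulk samples fewer cells of a type and less RNA per cell cannot be told apart.

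**Figure D2:**
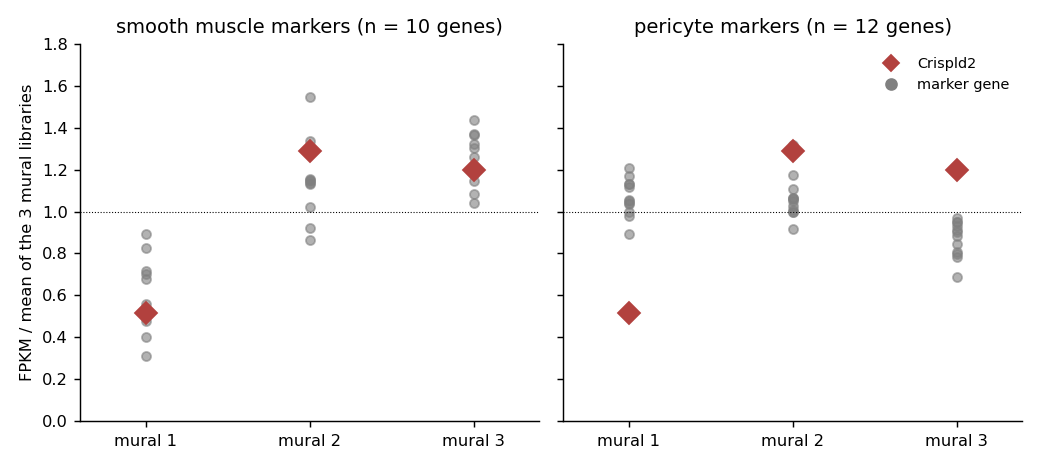
FPKM in each mural library divided by the mean of the 3 mural libraries, for *Crispld2* (red diamonds) and for 10 smooth muscle markers (left) or 12 pericyte markers (right, grey points). *Crispld2* lies among the smooth muscle markers in all 3 libraries, whereas in replicate 1 it lies below all 12 pericyte markers, in replicate 3 above all of them, and in replicate 2 above all except *Rgs5*.

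Expressed as a share of a marker's FPKM in the same library, *Crispld2* was steadiest over the mural libraries against *Acta2*, among the 22 smooth muscle and pericyte markers. It was 12.1%, 13.8% and 11.2% of *Acta2* in mural replicates 1, 2 and 3, and 9.25%, 8.26% and 4.91% in microvascular replicates 1, 2 and 3. These shares were thus higher in each mural library than in each fragment library, by a factor of 1.65 between the means. Against *Pdgfrb* the share was 9.97%, 24.4% and 26.7% in the mural libraries, while the fragments gave 9.37%, 12.5% and 6.87%, and here mural replicate 1 lay within the range of the fragments. Over the 3 mural libraries the coefficient of variation of the share was 25.4% at the median for the smooth muscle markers (10.8% to 40.6%) and 47.3% for the pericyte markers (37.3% to 57.5%). Mural cells had the higher mean share for each of these 22 genes, by a median factor of 2.10 for smooth muscle markers and 2.40 for pericyte markers. The libraries did not overlap for 9 of the 10 smooth muscle markers (all except *Tagln*) and 2 of the 12 pericyte markers (*Cspg4* and *Rgs5*). Against *Cspg4*, the gene of the other reporter, the share was 18.3%, 40.5% and 45.6% in the mural libraries and 7.30% to 13.4% in fragments. Shares were computed for these 22 genes only, so their variation and the counts without overlap have no value over all genes beside them. These shares contain the ratio that chose *Crispld2* and are given as a description.

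**Figure D3:**
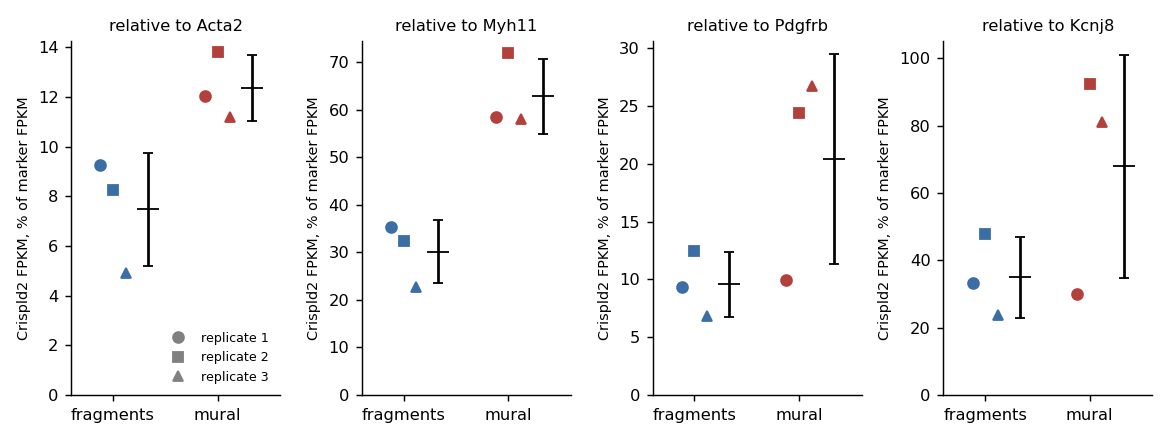
*Crispld2* FPKM as a percentage of the FPKM of *Acta2*, *Myh11*, *Pdgfrb* or *Kcnj8* in the same library (linear axes from 0; bars are mean ± SD, n = 3), with symbols for the replicate number. Against the smooth muscle genes *Acta2* and *Myh11* all mural libraries lie above all fragments, whereas against the pericyte genes *Pdgfrb* and *Kcnj8* mural replicate 1 lies among the fragments. Among the markers not shown, the pericyte genes *Cspg4* and *Rgs5* gave no overlap and the smooth muscle gene *Tagln* did.

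The 5 genes with the profile most like *Crispld2* over the 6 samples (Pearson r of log2(FPKM + 1)) were *Lgals1*, *Meg3*, *Cnih3*, *Aplp2* and *Mical2*, with r between 0.998 and 0.999. *Lgals1*, which encodes the lectin galectin-1, had an FPKM of 50.2, 78.2 and 69.9 in mural replicates 1, 2 and 3 and of 17.0 ± 2.86 (SD, n = 3) in fragments. *Mical2*, an actin-oxidizing enzyme gene, had 26.2, 48.3 and 48.8 in the same libraries, against 5.02 ± 0.930 (SD, n = 3) in fragments. *Myh11* ranked 7th and *Myl9* 10th in this order, and *Acta2* 20th. Other smooth muscle markers ranked far lower, with *Cnn1* at 706, *Lmod1* at 1091 and *Smtn* at 1362. Since the group difference dominates the measure, 682 of the 14800 other genes reached an r above 0.95. The measure does not take in the size of the difference, and *Aplp2* was not called (ratio 1.23, adjusted p = 0.078, limma). *Cnih3* had an FPKM of at most 0.383 in fragments and entered the test only through its mural libraries. The median r was 0.988 for smooth muscle markers, 0.975 for the 9 fibroblast markers tested and 0.963 for pericyte markers. The ranges overlapped, at 0.8878 to 0.9974 for smooth muscle, 0.3503 to 0.9885 for fibroblast and 0.9455 to 0.9808 for pericyte markers.

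Most fibroblast markers were also high in the sorted cells. Of the 9 tested, 7 were enriched (6.43% of all genes tested), and the summed FPKM of the list of 10 was 519, 713 and 629 in mural replicates 1, 2 and 3 and 65.2 to 75.0 in fragments. *Dcn*, the decorin gene, had an FPKM of 29.0, 20.1 and 38.7 in mural replicates 1, 2 and 3, with 2.98 to 4.88 in the fragments. *Ogn*, another small proteoglycan gene, had 14.9, 20.7 and 14.6, with 2.57 to 3.23 in the fragments. *Mfap5*, a microfibril gene, had 2.09, 3.44 and 5.23, was listed at 0 in microvascular replicates 1 and 3, and had 0.180 in replicate 2. All 3 genes were enriched, and their r to *Crispld2* was 0.921, 0.980 and 0.981. *Mfap5* reached 1 FPKM only in its mural libraries and so entered the test only through them. Its direction was thereby fixed, and its call, which is among the 7, is a description. *Dpt* was listed at 0 in all libraries except mural replicate 1, where its FPKM was 0.393, and *Lum* had values from 5.42 to 10.8 in mural cells. The collagen genes *Col1a1*, *Col1a2* and *Col3a1* make up most of the sum and are not particular to fibroblasts. The part of fibroblasts in the *Crispld2* value was not tested.

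*Crispld1*, the LCCL-bearing sister of *Crispld2*, did not share its pattern. Its FPKM was 5.36, 8.51 and 2.05 in mural replicates 1, 2 and 3 and 10.7, 5.94 and 5.27 in microvascular replicates 1, 2 and 3. The groups overlapped, with the highest value in a fragment library and the lowest in a mural library. The log2 fold change on the log2(FPKM + 1) scale was -0.49 (SE 0.46, adjusted p = 0.50, limma). In fragments *Crispld1* (7.31 ± 2.97, SD, n = 3) and *Crispld2* (4.45 ± 1.83, SD, n = 3) differed by less than the SD of *Crispld1*, whereas in mural cells the lowest *Crispld2* library was above the highest *Crispld1* library. The lowest mural value of *Crispld1*, in replicate 3, rests on approximately 7 fragments.

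To compare the groups across the relatives, log2(FPKM + 1) was fitted with limma for all 14801 genes that reached 1 FPKM in 3 or more of the 6 samples. Calls required an adjusted p under 0.05, together with a ratio of the means over 2 for enriched genes or under 0.5 for lower genes. Of the 5 relatives tested, 1 was enriched (*Glipr2*), where 6.43% of all genes tested were, and 0 were lower, where 10.1% of all genes tested were. The latter share includes 270 genes at 0 in every mural library, all of which were called lower. At an unadjusted p under 0.05, 2 relatives were higher in mural cells (*Glipr2* and *Pi15*) and 0 lower, where 14.1% of all genes tested were higher and 20.9% lower. The median log2 fold change of the 5 relatives was -0.20, and that of all genes tested -0.12. Every mural library was above every microvascular library for the same 2 relatives, against 16.5% of all genes tested. *Pi15* passed the filter on low values only through its mural libraries and therefore had to differ in this direction, so these 2 counts are descriptions.

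*Glipr2*, the Golgi-bound member, had an FPKM of 16.0, 19.9 and 22.8 in mural replicates 1, 2 and 3 and of 11.1, 6.14 and 7.85 in microvascular replicates 1, 2 and 3. All mural libraries were above all fragments, and the values varied little between mural libraries (coefficient of variation 17.4%). The ratio of the means, 19.5 ± 3.41 against 8.36 ± 2.50 (SD, n = 3), was 2.34, with a log2 fold change of 1.16 (SE 0.25, adjusted p = 0.016, limma). The values rest on approximately 60, 31 and 38 fragments in mural cells and 55 to 107 in the microvascular libraries. The call was lost when microvascular replicate 2 (adjusted p = 0.057) or 3 (adjusted p = 0.064) was left out, with log2 fold changes of 0.98 and 1.13.

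*Pi15*, a gene of a secreted CAP protein first described as a trypsin inhibitor, had an FPKM of 1.01, 4.998 and 6.98 in mural replicates 1, 2 and 3 and of 0.522, 0.775 and 0.800 in microvascular replicates 1, 2 and 3. The lowest mural value was close to the fragments and the other 2 were several times higher. It is a gene with a single annotated transcript, and its values correspond to 12, 25 and 37 fragments in mural cells and to 16, 22 and 25 in vessel fragments. The 95% Poisson interval of mural replicate 1 was 0.520 to 1.76 FPKM, which overlaps those of all microvascular libraries. *Pi15* did not pass the test (ratio 6.19, log2 fold change 1.43, SE 0.52, adjusted p = 0.091, limma), and it entered the test only through its mural values. Its level in mural replicate 1 was 16.8% of the mean of replicates 2 and 3, a low value in the same library as that of *Crispld2*. This was not particular to these genes, since *Glipr1* had 26.7% and *Pi16* 39.6% there, whereas *Glipr2* had 74.8% and *Crispld1* 101.6%.

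*Glipr1*, the p53-target relative, had an FPKM of 2.57, 14.6 and 4.64 in mural replicates 1, 2 and 3 and of 9.01, 7.39 and 9.25 in microvascular replicates 1, 2 and 3. Mural replicate 2 was above all fragments and the other 2 mural libraries below all of them. The log2 fold change was -0.48 (SE 0.51, adjusted p = 0.55, limma). The mural values rest on approximately 4, 11 and 4 fragments, too few to place the level. Without mural replicate 2 the gene was called lower (ratio 0.42, log2 fold change -1.08, adjusted p = 0.041).

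*Pi16*, known from fibroblasts, had an FPKM of 1.20, 0 and 6.08 in mural replicates 1, 2 and 3 and of 2.19, 2.06 and 1.40 in microvascular replicates 1, 2 and 3. It was listed at 0 in mural replicate 2, where 3 fragments would correspond to approximately 1.58 FPKM, which is below the level of *Pi16* in microvascular replicates 1 and 2 and above that in replicate 3. The mean FPKM was 2.43 ± 3.22 in mural cells and 1.88 ± 0.42 in fragments (SD, n = 3), a ratio of 1.29, whereas the log2 fold change was -0.20 (SE 0.66, adjusted p = 0.87, limma), so that the direction differed between the scales. The log2 fold change was 0.47 without mural replicate 2 and -0.95 without mural replicate 3. The high value in mural replicate 3 rests on approximately 12 fragments. In that library the summed astrocyte markers were highest too, whereas the fibroblast markers went both ways. *Dcn*, *Lum* and *Mfap5* were highest there, but *Ogn* (14.6) and *Slc6a13* (1.25) had their lowest mural value there. The summed fibroblast list was highest in mural replicate 2 (713, against 629 in replicate 3). The part of other cells was not tested.

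In order of mean FPKM, the mural cell levels were *Crispld2* (89.6), *Glipr2* (19.5), *Glipr1* (7.27), *Crispld1* (5.31), *Pi15* (4.33) and *Pi16* (2.43). *Crispld2* and *Glipr2* were separated from each other and from the rest with no overlap of libraries, but neighbours among the last 4 differed by less than their SDs. In fragments the order was *Glipr1* (8.55), *Glipr2* (8.36), *Crispld1* (7.31), *Crispld2* (4.45), *Pi16* (1.88) and *Pi15* (0.699). *Pi16* and *Pi15* were below the other 4 genes in every fragment library.

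The remaining CAP genes were listed at 0 in every library. These were 8 of 9 further family members looked up, *Crisp1*, *Crisp2*, *Crisp3*, *Crisp4*, *Glipr1l1*, *Glipr1l2*, *R3hdml* and *Clec18a*, many of which are known from the male reproductive tract. *Glipr1l3* had no entry under this symbol in the annotation. None could be tested.

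Genes that share the LCCL domain with *Crispld2* were compared in the same fit. Of the 3 tested (*Dcbld1*, *Dcbld2* and *Vit*), 1 was enriched (6.43% of all genes tested), *Dcbld2*, a membrane receptor gene. *Dcbld2* had an FPKM of 22.3, 23.8 and 38.2 in mural replicates 1, 2 and 3, and the fragments averaged 12.6 ± 2.52 (SD, n = 3), for a ratio of 2.22 (adjusted p = 0.021, limma). This call was lost without microvascular replicate 1 (adjusted p = 0.072), microvascular replicate 3 (adjusted p = 0.087) or mural replicate 3 (ratio 1.82). *Vit* (vitrin), an extracellular matrix gene, had 1.39, 1.11 and 5.22 in mural cells, highest in replicate 3 as *Pi16* was, and did not pass the test (adjusted p = 0.60). *Coch*, the cochlin gene, was too low to be tested, with an FPKM of at most 1.20.

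Since *Crispld2* is known to respond to glucocorticoids, 14 genes of the glucocorticoid receptor and its responses were examined. The receptor gene *Nr3c1* averaged 53.1 ± 5.28 FPKM in the sorted cells against 51.8 ± 4.17 in the fragments (SD, n = 3 each; log2 fold change 0.03, SE 0.13, adjusted p = 0.88, limma). Of the 14 genes, 0 were enriched and 5 were lower in mural cells (*Dusp1*, *Sgk1*, *Mt1*, *Mt2* and *Ddit4*). Of all genes tested, 6.43% were enriched and 10.1% lower, so that a count of 0 enriched among 14 is near the background. At an unadjusted p under 0.05, 1 was higher (*Klf9*) and 6 were lower (14.1% and 20.9% of all genes tested). *Ddit4* had a ratio of 0.49 (adjusted p = 0.027), close to the limit, and lost its call without microvascular replicate 1 (adjusted p = 0.11) or 3 (0.095) and without mural replicate 1 (0.054) or 2 (0.057). Without mural replicate 2, *Fkbp5* was called lower (adjusted p = 0.042). The largest falls were those of *Dusp1*, a MAP kinase phosphatase gene, from 197 ± 24.3 to 19.5 ± 3.93 (SD, n = 3), and of *Mt2*, a metallothionein gene. *Mt2* was listed at 0 in mural replicates 2 and 3 and at 1.61 in replicate 1 against 14.6 ± 3.06 in fragments. Its transcript is short (556 bases) and the mural libraries are shallower, so its mural values rest on very few fragments and do not place the size of the fall. *Klf9*, a transcription factor gene, was higher in all mural libraries (17.9 ± 2.22 against 9.11 ± 1.45, SD, n = 3, adjusted p = 0.015), with a ratio of 1.97 just under the limit. *Fkbp5* (ratio 0.58) and *Tsc22d3* (ratio 0.69), commonly used readouts of the receptor, did not pass the test (adjusted p = 0.16 and 0.080). The preparations differed in digestion and handling as well as in the cells they hold, which cannot be told apart in these values.

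**Figure D4:**
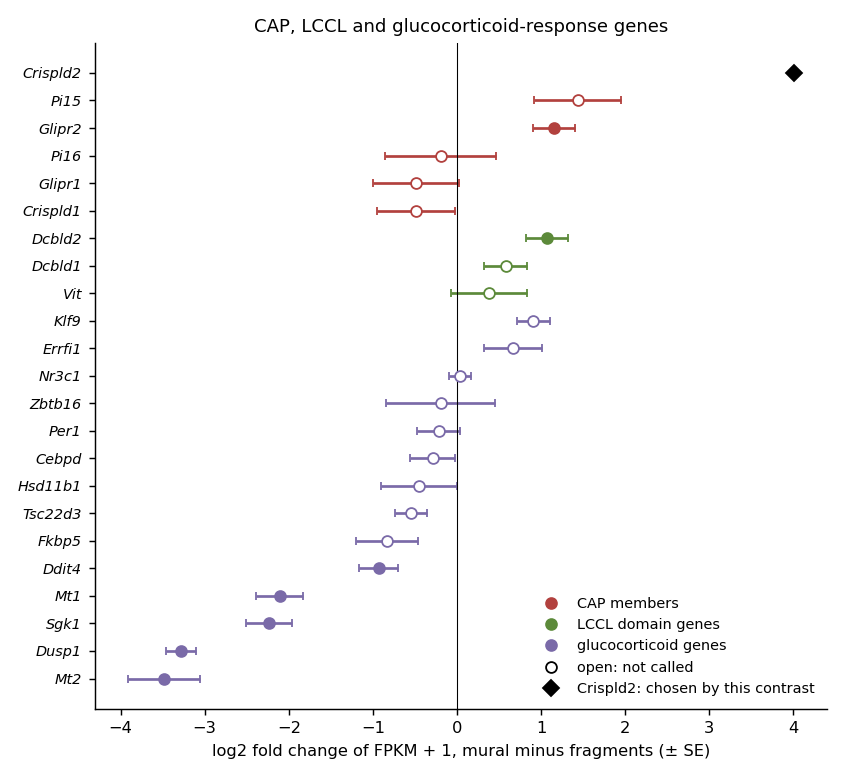
Log2 fold change of FPKM + 1 (mural minus microvascular; bars are SE from limma, n = 3 per group) for the CAP genes, LCCL domain genes and glucocorticoid-response genes tested, with filled points for called genes. *Crispld2* (black diamond) is plotted without an error because this contrast chose it; *Glipr2* and *Dcbld2* are called enriched and 5 glucocorticoid-response genes lower.

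The genes around *Crispld2* were examined in the same fit. Of 9 annotated genes with a start within 200 kb, 6 were tested, and 0 were enriched and 0 lower (limma), where 6.43% and 10.1% of all genes tested were, so that a count of 0 among 6 genes is near the background. At an unadjusted p under 0.05, 1 was higher and 1 lower, also near the background (14.1% and 20.9% of all genes tested). *Klhl36*, with its start at -130.1 kb from that of *Crispld2*, had an FPKM of 12.2 ± 2.36 against 6.29 ± 0.368 (SD, n = 3; ratio 1.94, adjusted p = 0.030), and *Cotl1*, at -151.9 kb, had 74.0 ± 13.0 against 118 ± 11.1 (SD, n = 3; ratio 0.63, adjusted p = 0.017), so that both fell short of the limit on the ratio. *Usp10*, *Zdhhc7*, *6430548M08Rik* and *Fam92b* had ratios from 0.33 to 1.22 and did not pass the test. The median ratio of the 6 neighbours was 0.93, and that of all genes tested 0.94.

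**Figure D5:**
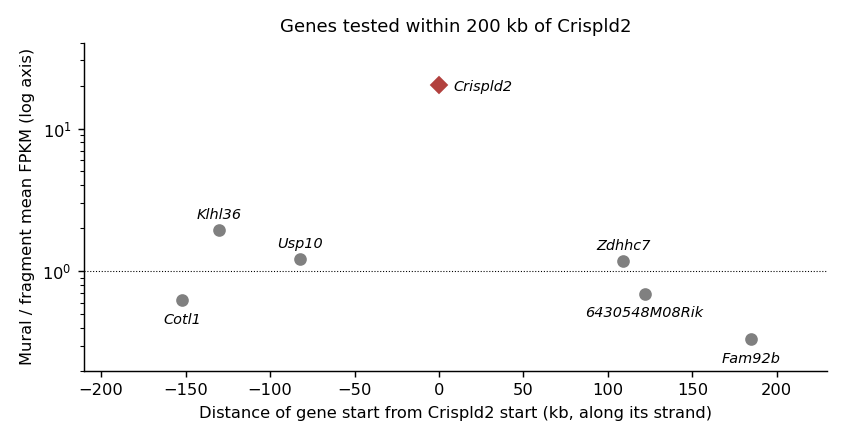
Ratio of mean FPKM (mural over microvascular, log axis) against the distance of a gene's start from that of *Crispld2*, for the 6 tested genes within 200 kb. The neighbours lie between 0.33 and 1.94, and *Crispld2* (red diamond) at 20.1.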

How the data were processed

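The deposited FPKM values, 1 file per library, were made by the authors with Cufflinks 2.2.1 from TopHat2 2.0.4 alignments on the NCBIM37 build, after duplicate removal by Picard 1.92. The scaling between libraries is not given in the sources used here. Of 9 repeated identifiers 1 line was kept, which left 33460 genes, and 33116 were matched to the GENCODE annotation of NCBIM37. Genes were tested with limma 3.58.1 in R 4.3.3 (intensity trend, Benjamini-Hochberg adjustment over 14801 genes), because the test of Cufflinks used in the study needs the alignments. The fit was tested on simulated data. The value of 1 fragment was recovered from genes with 1 transcript longer than 1500 bases, less 200 bases, and 97.4 to 98.4% of low values came out whole (within 0.05). Fragments of genes with several transcripts are approximate. The members and lists were chosen with earlier results of these data known. Genes named are the members, list genes, genes within 200 kb of *Crispld2* and the 5 most like it. The samples come from 3 brains, each divided between both preparations. Other steps used Python 3.11.15 with pandas 2.3.3.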

Additional observations from a re-analysis of the deposited data

How the results depend on the processing

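The ratio of *Crispld2* stayed between 16.3 and 25.04 over 11 alternatives (scaling, other averages, same-number ratios and leaving out each sample in turn). Among the 5 relatives, quantile normalization called 2 enriched, adding *Pi15* (log2 fold change 1.87, adjusted p = 0.039), and 0 were enriched at an adjusted p under 0.01. When single samples were omitted, 0 to 1 relatives were enriched and 0 to 1 lower, the latter *Glipr1* without mural replicate 2. The log2 fold change of *Pi16* turned positive with quantile normalization (0.42) and without mural replicate 2 (0.47), and ranged from -0.95 to 0.47 when single samples were omitted. *Pi15* could not be fitted with the filter at an FPKM of 5 or without any 1 mural library, and *Pi16* not with that filter. For LCCL domain genes, 0 were enriched at an adjusted p under 0.01, and 0 to 1 when samples were left out. For glucocorticoid-response genes, 1 (*Klf9*) was enriched under median-ratio scaling and under quantile normalization, and 0 to 1 when samples were left out. The count of lower glucocorticoid-response genes was 4 to 5, and *Ddit4* also lost its call under quantile normalization (ratio 0.52) and at an adjusted p under 0.01. With the replicate number as a block (replicate block), *Glipr2* remained called (adjusted p = 0.038) and 1 relative was enriched, as without it, and no other call of these lists changed. The deviations of same-numbered samples correlated with r of 0.082, 0.020 and 0.045 over 14801 genes, and those of unlike-numbered samples with r of -0.061 to 0.010. Each same-number value was the highest for its samples, though all were small. Whether equal numbers mark the same brain is not stated in the labels. The main fit therefore left the samples unpaired, with the block as an alternative. The depth of mural replicates 2 and 3 limits values resting on a few fragments, as for *Glipr1*, *Pi16* and *Mt2*. The smallest p of an exact permutation test of 3 samples against 3 would be 0.1, so none was used.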
